A study of Arabidopsis thaliana with 12 samples.

Results

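Class III peroxidases are haem enzymes that plant cells send through the endoplasmic reticulum (ER) to the cell wall or the vacuole. In the wall they use hydrogen peroxide to cross-link lignin and wall proteins, and they can also make or consume the reactive oxygen that loosens walls and follows attack by microbes. Each is made with a signal peptide, and its mRNA is therefore translated at the ER membrane, where IRE1, a stress sensor with an RNase domain, also sits. The family was followed here through a list of 59 Arabidopsis thaliana loci. Of these, 42 had an array probe set assigned to that gene alone and are the members described below, out of 13286 genes with such a probe set in the whole series. A further 6 loci lay only on probe sets shared with a second gene, and 11 had neither.

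The series measured total RNA of 10-day-old Columbia (Col-0) seedlings, grown at 22 °C, on 12 one-colour arrays. Every group was first treated with 75 µM actinomycin D, which blocks transcription, and after 2 h the seedlings were given 5 mg per litre tunicamycin, or its solvent DMSO as the mock treatment, for another 5 h. Tunicamycin blocks N-glycosylation and so loads the ER with misfolded protein. The 4 groups of 3 arrays were wild type with mock, wild type with tunicamycin, the ire1a ire1b double mutant with mock and the same mutant with tunicamycin. With transcription blocked in every group, the design asks which transcripts are lost during ER stress and whether the loss needs IRE1. Whether the 3 arrays of a group stand for separate cultures is not stated. Each p-value therefore rests on the spread between these arrays alone, and that spread may be technical. IRE1A and IRE1B had no probe set assigned to them, so the mutant label was not checked against its genes. Whole seedlings were used, and fewer cells of a type and less RNA per cell cannot be told apart.

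The values are signals, that is, linear array intensities that the authors made with MAS5 and scaled to a common level. Leaving out 2% of probe sets at either end, the mean was 500.1 on every array, and the array medians ran from 106.7 to 118.8. Such scaling gives every change relative to the bulk of the array, and the number of arrays limits the precision. Of the green tissue markers 1 was measured: RCA, the Rubisco activase gene, had 26917 ± 1366 on the mock arrays of wild type and 27339 ± 398 on its tunicamycin arrays (SD, n = 3). Of the root markers, PYK10, the beta-glucosidase of root ER bodies, went from 22998 ± 928 to 10067 ± 379 in wild type and from 23105 ± 816 to 24641 ± 1161 in the mutant. Of 2 root hair expansins measured, EXPA18 had -0.11 ± 0.29 (log2) in wild type. EXPA7, whose signal was below the filter for testing, went from 75.2 ± 5.95 to 47.0 ± 15.8 in wild type (-0.72 ± 0.30), and its mutant change was -0.51 ± 0.30, with no overlap in either genotype. The summed signal of the 3 measured root markers of 7 listed, mostly PYK10, was 22129 to 23942 and 9828 to 10421 in wild type, and 22711 to 24263 and 23510 to 25742 in the mutant (mock, then tunicamycin). PYK10 thus fell on the arrays on which peroxidases fell, and the part of root tissue in the result was not tested. No flower or seed marker of the list had a probe set of its own.

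Of the 42 members, 34 had a mean log2 signal above the 40th percentile of all probe sets (a signal of 68.7) and entered the test with 13647 probe sets in all. This filter used the mean over all 12 arrays, and 4 of the 34 had at least 1 group below it. The other 8 stayed below: AT2G39040, AT3G50990 (PER36, a peroxidase of seed coat mucilage), AT1G14550, AT2G24800, AT2G22420, AT4G25980, PRX52 (a lignin peroxidase) and AT3G03670. Their signals lay between 1.71 and 97.3 on single arrays, too low for a reliable change, and their wild-type changes spread from -1.87 to +1.08 with 4 of 8 below 0. Tested with no filter, 0 of these 8 passed and 14 of the 42 fell in wild type, against 3.11% of all probe sets. PRXR1 (AT4G21960) had the highest signal of the members, at the 99.4th percentile, though signals of different probe sets do not rank transcripts by abundance. The next were AT1G71695, AT3G21770, AT5G64100 and AT2G37130, at percentiles from 92.4 to 93.9.

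In wild type, peroxidase transcripts fell with tunicamycin. The 2 largest falls among the tested members were those of AT5G19890 and AT4G30170, which dropped 5.01-fold and 4.87-fold, and PRXR1 dropped 2.12-fold. By limma's test, with p adjusted across the 13647 probe sets (Benjamini-Hochberg), 15 of the 34 tested members (44.1%) fell and 0 rose. The background was 5.77% lower and 0.432% higher among all tested probe sets. At an unadjusted p below 0.05, 22 members were lower and 0 higher, against 10.2% and 5.11%. Falls of 2-fold or more numbered 6 among the 15, and the range was 1.47-fold to 5.01-fold. The median change of the 34 members was -0.64 against +0.09 for all tested probe sets, and 34 of 34 lay below 0 against 33.2% of all. In 25 of the 34 the 3 tunicamycin arrays lay below the 3 mock arrays without overlap, against 11.8% of all tested probe sets.

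The shift was present on each array. The median deviation of the 34 members from their wild-type mock means was -0.62, -0.70 and -0.58 (log2) on the 3 wild-type tunicamycin arrays. All tested probe sets had medians on these arrays of +0.09, +0.08 and +0.07. The mutant arrays gave -0.13, -0.02 and -0.30 under mock and -0.05, +0.04 and -0.12 under tunicamycin. The wild-type tunicamycin arrays were therefore the lowest for the family, and the next lowest was ire1a ire1b mock array 3.

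**Figure D1:**
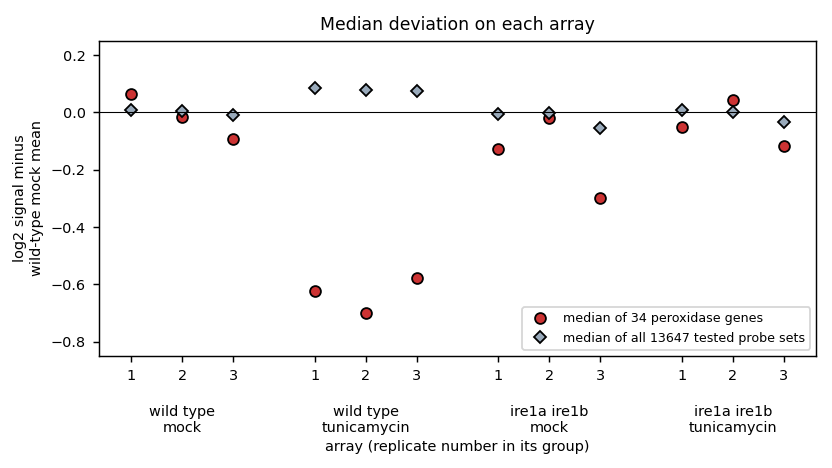
Median over the 34 tested peroxidase genes (red circles) and over all 13647 tested probe sets (grey diamonds) of log2 signal minus the wild-type mock mean, for each array. The 3 wild-type tunicamycin arrays lie at -0.70 to -0.58 for the peroxidases and at +0.07 to +0.09 for all probe sets.

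AT4G30170 had signals of 1863, 1497 and 1641 on the wild-type mock arrays and 388, 316 and 322 under tunicamycin. In the mutant it had 1470, 1873 and 1053 under mock and 1458, 1839 and 1202 under tunicamycin. The wild-type groups were far apart and the mutant groups overlapped. Its log2 change was -2.29 ± 0.20 in wild type (limma adjusted p = 9.78e-06) and +0.05 ± 0.20 in the mutant.

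AT5G19890 had 487, 665 and 264 in wild-type mock and 107, 78.4 and 81.3 under tunicamycin. The mutant gave 417, 672 and 343 under mock and 313, 607 and 262 under tunicamycin. Its mock values varied widely, but the wild-type groups did not overlap. The change was -2.32 ± 0.36 in wild type (limma adjusted p = 0.000803) and -0.32 ± 0.36 in the mutant.

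PRXR1, the member of highest array signal, had 18408, 20270 and 18104 in wild-type mock and 8080, 8934 and 9839 under tunicamycin. In the mutant the values were 16242, 21198 and 15206 under mock and 16943, 18856 and 12435 under tunicamycin. All 3 wild-type tunicamycin arrays lay below every other array. The change was -1.08 ± 0.15 in wild type (limma adjusted p = 0.00036) and -0.13 ± 0.15 in the mutant, with a 95% interval of -0.45 to 0.19 there.

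Among members tied to lignin and wall cross-linking, 3 of the 6 tested fell in wild type (50%), with a median of -0.73. Over all 34 members 44.1% fell, with a median of -0.64, against 5.77% of all tested probe sets. Differences between roles were not tested. PRX71 (AT5G64120), which stiffens walls and limits cell growth, had 1065, 1533 and 748 in wild-type mock and 374, 382 and 234 under tunicamycin, a change of -1.73 ± 0.28. In the mutant it had 1777, 2556 and 1362 under mock and 1881, 2102 and 1361 under tunicamycin, which overlap. AT5G51890, a peroxidase of xylem vessels, went from 957, 1032 and 1076 to 394, 557 and 523 (-1.07 ± 0.21). AT4G33420, also found in vessels, went from 860, 706 and 864 to 502, 427 and 468 (-0.80 ± 0.17). Their adjusted p values by limma were 0.00138, 0.00453 and 0.0109. PRX72 (AT5G66390), needed for normal lignin, had 429, 423 and 403 under mock and 399, 369 and 352 under tunicamycin. Its change of -0.17 ± 0.12 had a 95% interval of -0.41 to 0.08 and did not pass (limma adjusted p = 0.543). PRX25 (AT2G41480), another lignin peroxidase, had -0.08 ± 0.38, so its interval of -0.90 to 0.74 allows a large change either way. AT4G36430 completed the group with -0.66 ± 0.21, short of the threshold.

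Among members known from root hairs, 2 of the 6 tested fell (33.3%), with a median of -0.64. The family as a whole had 44.1% and the same median, against 5.77% of all tested probe sets. AT5G64100 had 3518, 3482 and 2848 in wild-type mock and 1689, 1648 and 2234 under tunicamycin, a change of -0.83 ± 0.12 (limma adjusted p = 0.000694). AT5G17820 went from 1096, 1117 and 952 to 605, 608 and 549 (-0.84 ± 0.20, limma adjusted p = 0.0205). AT4G26010, which acts in root hair growth, had -0.74 ± 0.23 and stayed short of the threshold (limma adjusted p = 0.0795), although its wild-type groups of 600, 429 and 451 and of 291, 318 and 270 did not overlap. The other 3 were AT1G30870 (-0.54 ± 0.20), AT5G39580 (-0.49 ± 0.28) and AT3G49960 (-0.35 ± 0.45).

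Of the loci tied to the oxidative burst and defence, AT2G37130 alone was tested. Its signals were 2941, 3158 and 2598 in wild-type mock and 1323, 1081 and 1029 under tunicamycin, against 2573, 3341 and 1484 and then 2631, 3986 and 2240 in the mutant. The wild-type groups were apart by a factor of 2.54 on the fitted scale (-1.35 ± 0.25, limma adjusted p = 0.00416), while the mutant values overlapped (+0.29 ± 0.25).

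The other 21 tested members have no role assigned here, and 9 of them fell (42.9%, against 5.77% of all tested probe sets), with a median of -0.61. Besides AT5G19890, AT4G30170 and PRXR1 these were AT4G11290 (-0.92 ± 0.20), AT3G28200 (-0.79 ± 0.16), AT3G01190 (-0.65 ± 0.14), AT1G71695 (-0.63 ± 0.10), AT4G08780 (-0.56 ± 0.15) and AT2G35380 (-0.99 ± 0.26). AT1G71695 is an example of a small but tight fall: its arrays had 3066, 2914 and 3315 under mock and 1802, 2173 and 2031 under tunicamycin. AT2G35380 dropped from 138, 118 and 131 to 54.8, 62.5 and 78.9, with a tunicamycin mean under the filter signal, which leaves the size of that fall uncertain. It entered the test through wild-type mock, the group where it is high (mean 129, against 65.4 to 69.7 in the other groups), and without it 14 of 33 tested members fell. In the mutant its signals were 71.4, 43.9 and 90.2 under mock, already near that level. The 5 members next to the threshold had adjusted p values from 0.0593 to 0.127 by limma: AT2G18980, AT3G21770, AT4G26010, AT4G36430 and AT5G06730.

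Of the 15 falls, 9 held in each of the 20 alternative fits run for them: AT5G19890, AT4G30170, PRX71, AT2G37130, PRXR1, AT5G51890, AT5G64100, AT3G28200 and AT1G71695. The calls of the other 6 ended when single arrays were left out, in 7 of 12 such fits for AT2G35380 (and with no filter), in 5 for AT5G17820 and AT4G08780, in 4 for AT3G01190, in 3 for AT4G33420 and in 2 for AT4G11290. Without wild-type tunicamycin array 2 the adjusted p values by limma rose to 0.174 for AT4G08780, 0.0692 for AT3G01190, 0.0669 for AT4G11290 and 0.0599 for AT4G33420. Without wild-type tunicamycin array 1 that of AT2G35380 was 0.169, and without wild-type mock array 2 that of AT5G17820 was 0.0873.

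**Figure D2:**
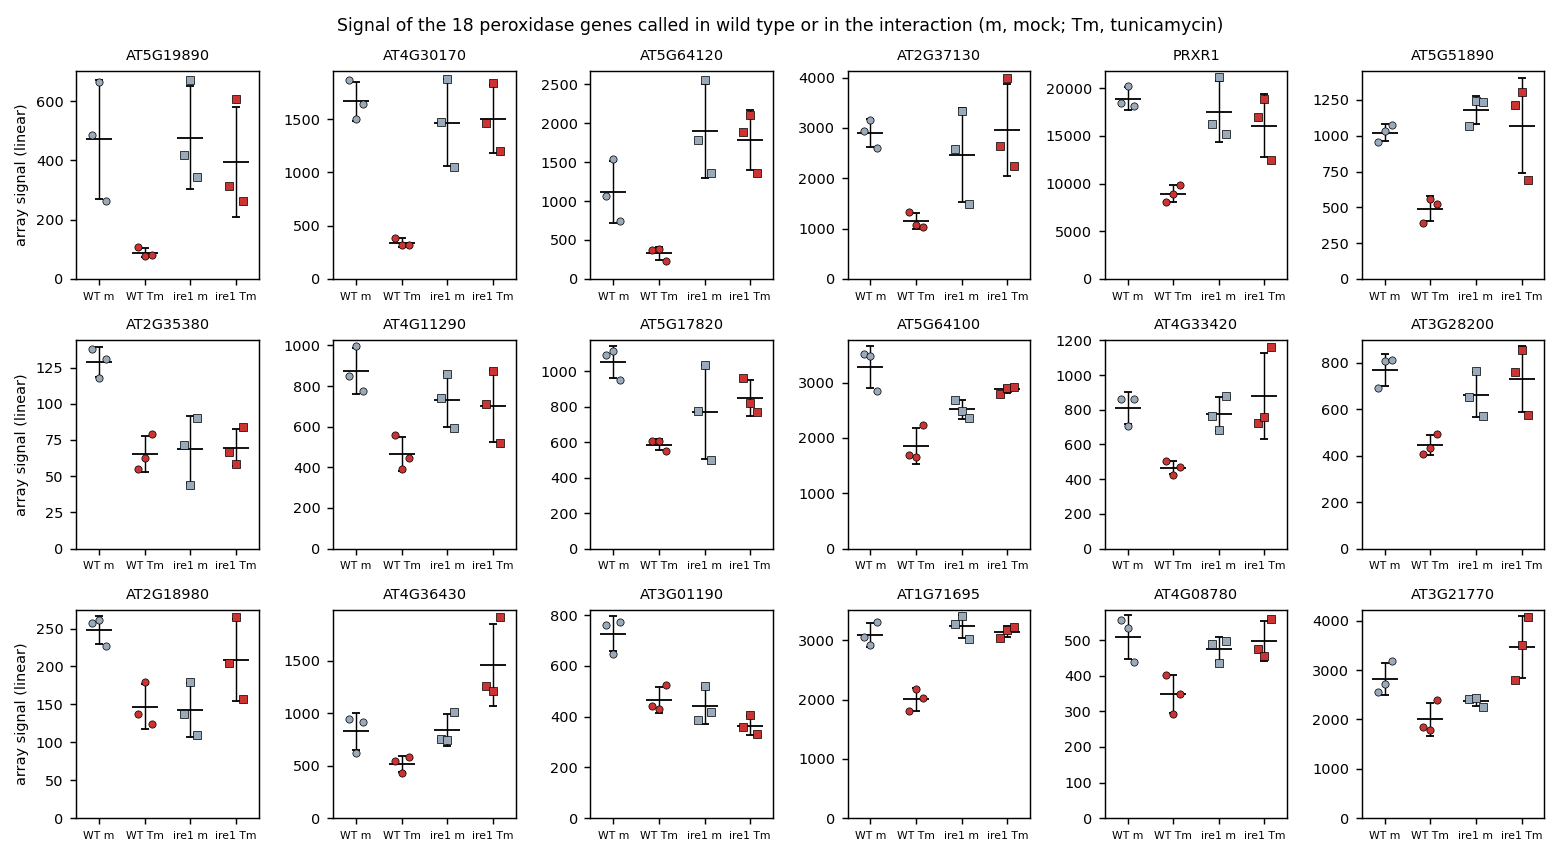
Array signal (linear axis from 0) of the 18 peroxidase genes that passed in wild type or in the interaction, with each array as a point (circles, wild type, WT; squares, ire1a ire1b, written ire1) and the mean ± SD of the 3 arrays as bars. In AT4G30170, for example, the wild-type tunicamycin arrays sit at 316 to 388 and all other arrays at 1053 or more.

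Counts of falls were also read by brightness. With 5 equal bins of mean signal over the 12 arrays, 8 of 12 members fell in the fourth bin and 4 of 6 in the brightest. The shares of all probe sets called lower in those bins were 10.2% and 8.64%. In the dimmest bin 1 of 6 members fell, in the next 0 of 3 and in the middle bin 2 of 7, against 0.916%, 2.35% and 6.78% of all. The median change of the members was -0.40, -0.77, -0.43, -0.79 and -0.73 from the dimmest to the brightest bin. MAS5 values of dim probe sets vary more, and the wild-type arrays used for the change also enter the mean signal.

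**Figure D3:**
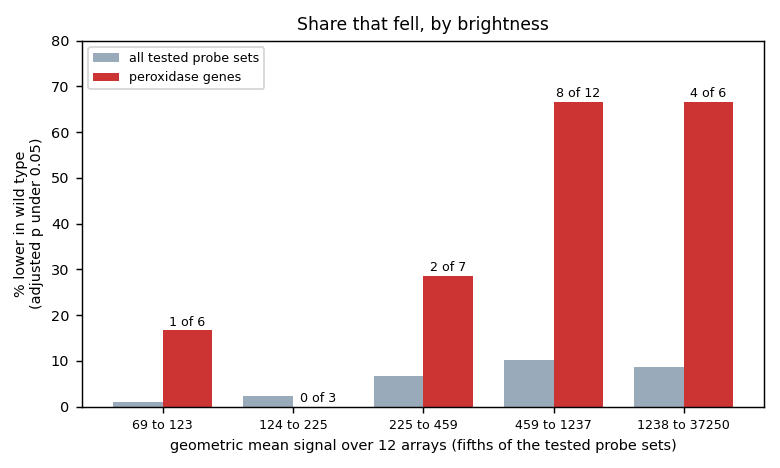
Percentage of probe sets called lower with tunicamycin in wild type (adjusted p under 0.05), in 5 equal bins of geometric mean signal over the 12 arrays, for all tested probe sets (grey) and for the 34 peroxidase genes (red, with counts). The peroxidase share is 66.7% in each of the 2 brightest bins, against 10.2% and 8.64% of all probe sets.

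In ire1a ire1b the same treatment changed 0 of the 34 tested members by limma, with a background of 0.044% called either way (0% lower, 0.044% higher). At an unadjusted p below 0.05, 0 were lower and 5 higher, against 1.33% and 2.34%. The median change was +0.09, close to the +0.01 of all tested probe sets, and 13 members lay below 0, with 47.3% of all, against 21 above. The 15 members that fell in wild type had mutant changes from -0.32 to +0.29 with a median of +0.05, and 7 of them lay below 0. For each of the 15 the 95% interval of the mutant change lay above the change fitted in wild type, though intervals reached down to -1.08, as for AT5G19890. These 15 were picked by their wild-type falls, and the intervals leave out the error of those falls. They are therefore no test between genotypes. The interaction below is that test, and 8 of the 15 passed it. In the mutant the smallest p values belonged to members that were higher under tunicamycin. AT4G36430 had 757, 749 and 1013 under mock and 1260, 1217 and 1915 under tunicamycin (+0.78 ± 0.21, limma adjusted p = 0.62). AT3G21770 had 2406, 2435 and 2255 and then 2808, 3520 and 4078 (+0.54 ± 0.15, limma adjusted p = 0.702). In both genes the mutant groups did not overlap, but neither passed. Groups apart in that direction were seen in 5 of the 34 members and in 3.96% of all tested probe sets. AT5G15180 followed with 79.5, 59.7 and 83.5 and then 109, 101 and 135 (+0.63 ± 0.23, limma unadjusted p = 0.0162).

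The interaction, the wild-type effect of tunicamycin minus its effect in the mutant, tests whether the response differed between genotypes. It was below 0 and past the threshold for 11 of the 34 tested members and above 0 for 0, with backgrounds of 2.98% and 0.0879%. At an unadjusted p below 0.05 the counts were 23 and 0, against 8.49% and 2.87%, and 31 members lay below 0 against 39.8% of all. Of the 34 tested members, 8 fell in wild type and also passed in the interaction, against 2.88% of all tested probe sets. Among falls alone the shares were similar: 8 of the 15 members and 393 of the 788 probe sets that fell in wild type. The 8 members were AT4G30170 (-2.34 ± 0.28), AT5G19890 (-2.01 ± 0.50), PRX71 (-1.66 ± 0.40), AT2G37130 (-1.64 ± 0.36), AT5G64100 (-1.03 ± 0.18), PRXR1 (-0.95 ± 0.21), AT3G28200 (-0.92 ± 0.22) and AT1G71695 (-0.59 ± 0.14). The median interaction of the 34 members was -0.79, against +0.07 for all tested probe sets.

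A further 3 members passed in the interaction without passing in wild type. AT4G36430 had 947, 623 and 913 in wild-type mock and 541, 434 and 579 under tunicamycin, a change of -0.66 ± 0.21, and together with its higher mutant values this gave -1.45 ± 0.29 (limma adjusted p = 0.0131). AT3G21770 went from 2562, 2715 and 3188 to 1842, 1787 and 2395 in wild type (-0.50 ± 0.15) and had an interaction of -1.03 ± 0.21 (limma adjusted p = 0.0124). AT2G18980 had 257, 261 and 227 and then 137, 180 and 124 in wild type, with 138, 180 and 110 and then 204, 265 and 157 in the mutant, an interaction of -1.32 ± 0.32 (limma adjusted p = 0.0361). In these 3 genes wild type was lower and the mutant higher with tunicamycin, and neither change passed on its own. For AT2G18980 the mutant mock arrays were already near the wild-type tunicamycin level. Under mock its mutant arrays lay below wild type without overlap (-0.83 ± 0.22, limma adjusted p = 0.209). Under tunicamycin the mutant had +0.49 ± 0.22 against wild type (limma adjusted p = 0.202).

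The 7 members that fell in wild type without passing in the interaction had interaction values from -1.06 ± 0.37 (AT2G35380) to -0.38 ± 0.20 (AT3G01190). AT4G33420 came nearest to the threshold (-0.95 ± 0.24, limma adjusted p = 0.0534), then AT5G17820 (-1.04 ± 0.28, limma adjusted p = 0.0722). For AT3G01190 the mutant had 385, 521 and 419 under mock and 357, 405 and 332 under tunicamycin, so its mutant mock values were already in or below the range of the wild-type tunicamycin values of 440, 429 and 524.

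**Figure D4:**
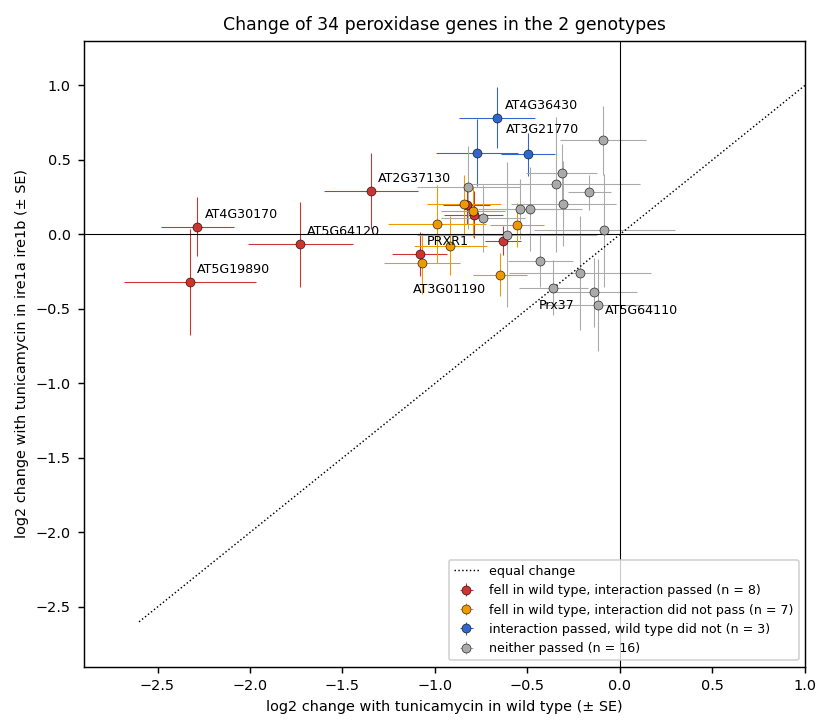
Log2 change with tunicamycin (± SE, n = 3 arrays per group) of each of the 34 tested peroxidase genes in wild type (horizontal) and in ire1a ire1b (vertical); colours show which tests passed and the dotted line marks equal changes. All 34 points lie left of 0 in wild type, while in the mutant 13 lie below 0 and 21 above.

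The interaction calls depended on single arrays more than the wild-type calls did. The calls of AT4G30170, AT5G64100, AT4G36430 and AT3G21770 held in each of the 19 alternative fits, with adjusted p values by limma of at most 0.00275, 0.0207, 0.0472 and 0.0442. The other 7 ended in 5 to 9 of the 12 fits without 1 array. Their highest adjusted p values were 0.134 for AT5G19890 (without wild-type mock array 2) and 0.108 for PRX71 (without ire1a ire1b tunicamycin array 2). Without wild-type tunicamycin array 1 they were 0.119 for AT3G28200, 0.0975 for AT2G18980, 0.094 for AT1G71695 and 0.0794 for PRXR1, and AT2G37130 had 0.067 without wild-type mock array 2. The count of 11 became 4 without wild-type mock array 1 or ire1a ire1b tunicamycin array 2. It became 5 without array 1 of wild-type tunicamycin or of ire1a ire1b mock, wild-type mock array 2 or ire1a ire1b mock array 3, and 6 without ire1a ire1b tunicamycin array 1 or array 2 or 3 of wild-type tunicamycin. With no filter on low signal it was 6. The replicate block gave 13 and array weights 16, with all 11 calls of the main fit among them in both.

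Members that sit side by side in the genome were set against each other within arrays. AT5G64100, AT5G64110 and PRX71 (AT5G64120) are adjacent in the RefSeq gene order. The outer members of the trio fell in wild type, and AT5G64110 between them had 533, 636 and 473 under mock and 472, 545 and 467 under tunicamycin, which overlap. Its change of -0.14 ± 0.23 did not pass (limma adjusted p = 0.816). Within an array, the log2 ratio of AT5G64110 to PRX71 was higher by 1.59 with tunicamycin in wild type, and that of AT5G64100 to AT5G64110 lower (-0.69). Both had groups without overlap and an exact two-sided permutation p of 0.1, the smallest that 3 arrays against 3 allow. In the mutant the same ratios changed by -0.32 and +0.58 (exact permutation p = 0.3 for each, 2 of 5 neighbour ratios computed).

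Prx37 (AT4G08770), whose overproduction dwarfs plants, lies next to AT4G08780. It had 1661, 1943 and 1336 in wild-type mock and 1394, 1100 and 1330 under tunicamycin, with 1443, 1711 and 1417 and then 1576, 911 and 1161 in the mutant. The change was -0.36 ± 0.19 in each genotype, and the interaction was -0.004 with a 95% interval of -0.57 to 0.57. AT4G08780 fell in wild type from 557, 535 and 441 to 402, 294 and 350 (limma adjusted p = 0.036). The ratio of the pair changed by +0.20 (exact two-sided permutation p = 0.2), so the neighbours were not shown to differ.

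**Figure D5:**
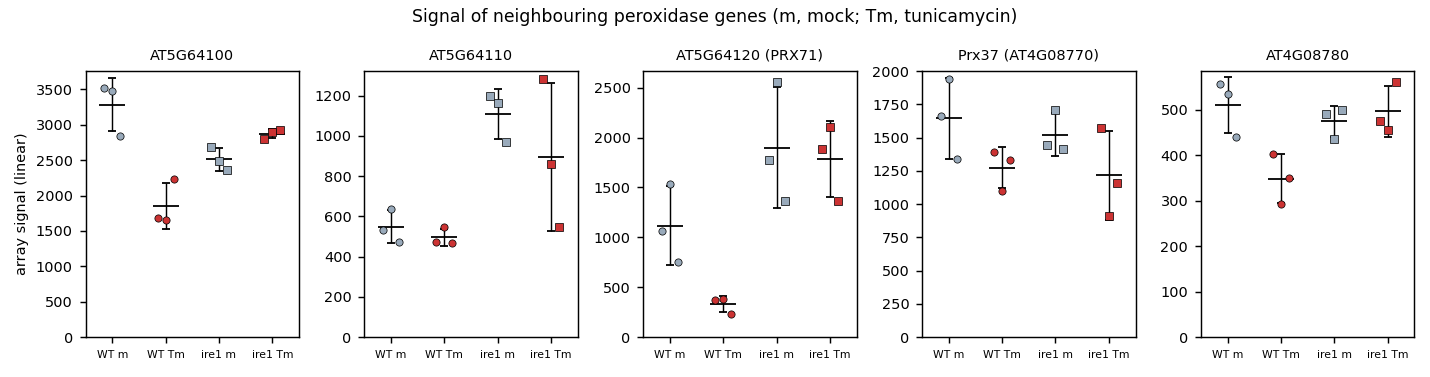
Array signal (linear axis from 0) of 2 sets of neighbouring peroxidase genes, with each array as a point (circles, wild type, WT; squares, ire1a ire1b, written ire1) and the mean ± SD of the 3 arrays as bars. In wild type AT5G64110 lies between 467 and 636 on all 6 arrays, while PRX71 lies between 748 and 1533 under mock and between 234 and 382 under tunicamycin.

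The genotypes were also compared without ER stress. Under mock 1 of the 34 tested members passed, AT3G01190, which was lower in the mutant, with a background of 0.484% called either way (0.322% lower, 0.161% higher). Its signals were 761, 646 and 774 in wild type and 385, 521 and 419 in ire1a ire1b (-0.73 ± 0.14, limma adjusted p = 0.0424). The call of AT3G01190 ended with quantile normalization, with each array centred on its median, with no filter, with only the arrays compared, and in 9 of the 12 fits without 1 array. The count of members that passed was 4 with the replicate block and 8 with array weights, AT3G01190 among them in both. The 3 mutant arrays lay below the 3 wild-type arrays all the same. Next came AT5G64110 with 533, 636 and 473 in wild type and 1199, 1162 and 969 in the mutant (+1.02 ± 0.23, limma adjusted p = 0.0949). AT5G06730 followed with 107, 82.6 and 97.4 in wild type and 216, 147 and 278 in the mutant (+1.12 ± 0.28, limma adjusted p = 0.161). In both genes the genotypes did not overlap, and these adjusted p values lay above the threshold. Mutant arrays lay apart below wild type in 7 members and above in 2, against 8.39% and 5.32% of all tested probe sets. At an unadjusted p below 0.05, 8 members were lower and 4 higher in the mutant under mock. The share of all tested probe sets at that level is not given here, so these counts have no background. The median of the 34 members was -0.11 against -0.02 for all tested probe sets.

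Under tunicamycin 17 of the 34 tested members were higher in the mutant than in wild type and 0 lower, with backgrounds of 6.68% higher and 3.03% lower. At an unadjusted p below 0.05, 21 were higher and 1 lower, against 10.9% and 12.1%. The mutant arrays lay above wild type without overlap in 23, against 11.5% of all. This comparison shares its arrays with the ones above. Of the 17, 11 were among the members that fell in wild type. PRX71 showed the widest gap, 5.44-fold (+2.44 ± 0.28), from 374, 382 and 234 in wild type to 1881, 2102 and 1361 in the mutant. AT4G30170 was 4.34-fold and AT5G19890 4.18-fold higher. For PRX71 the mutant was also higher under mock, by +0.78 ± 0.28 (limma adjusted p = 0.467), with groups that overlap. The 6 that did not pass as falls were AT5G06730, AT4G36430, AT4G26010, AT5G39580, AT3G21770 and AT1G30870. AT5G06730 had 58.4, 56.6 and 47.1 in wild type, below the filter value, and 243, 178 and 394 in the mutant, so its 4.79-fold gap is of uncertain size. AT5G39580 also had a wild-type tunicamycin mean below the filter value (61.8). Its call (limma adjusted p = 0.0466) ended with no filter (limma adjusted p = 0.097). So did the calls of AT1G30870 (limma adjusted p = 0.0498, then 0.0769) and AT4G08780 (0.0386, then 0.0504). The 4 falls that did not pass as higher in the mutant here were AT4G11290, AT5G17820, AT2G35380 and AT3G01190. AT4G11290 (+0.58 ± 0.20, limma adjusted p = 0.0901) and AT5G17820 (+0.53 ± 0.20, limma adjusted p = 0.122) were higher but missed the threshold. AT2G35380 had +0.09 ± 0.26. For AT3G01190 the mutant lay lower under tunicamycin as well, at 357, 405 and 332 against 440, 429 and 524 (-0.35 ± 0.14, limma adjusted p = 0.161).

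Probe sets shared by a pair of genes are not members, since their signal cannot be split. The one shared by AT2G38390 and AT2G38380, 2 peroxidase genes, had 4066, 3240 and 4098 in wild-type mock and 651, 796 and 1159 under tunicamycin. The mutant values were 2922, 3635 and 3034 under mock and 2219, 3051 and 2300 under tunicamycin, which overlap. Its change was -2.16 ± 0.19 in wild type (limma adjusted p = 1.05e-05) and its interaction -1.81 ± 0.27 (limma adjusted p = 0.0019). The probe set of AT4G37530 and AT4G37520 went from 1035, 1021 and 963 to 702, 528 and 638 in wild type (-0.70 ± 0.14, limma adjusted p = 0.00587), with an interaction of -0.80 ± 0.20 (limma adjusted p = 0.0433). That of AT2G18150 and AT2G18140 had -0.49 ± 0.30 and did not pass (limma adjusted p = 0.485). The last, of AT3G42570 and AT3G17070, had signals of 1.73 to 4.52 and was not tested.

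Other genes of hydrogen peroxide and lignin chemistry were read from lists of known members, few of which had a probe set of their own. Of 28 other peroxide-using enzymes, 5 were tested, and 0 passed in wild type by limma (0 also at an unadjusted p below 0.05). With 5.77% of all tested probe sets called lower, and 10.2% at an unadjusted p below 0.05, a count of 0 of 5 does not set them apart. They are the chloroplast ascorbate peroxidases SAPX and TAPX, the peroxiredoxins 2CPA and PRXIIE of the chloroplast and PRXIIF of mitochondria. Their wild-type changes ran from -0.11 to +0.11 with a median of +0.05, and 2CPA, for example, had 15078 ± 1256 under mock and 15587 ± 795 under tunicamycin (SD, n = 3). Among laccases and related secreted oxidases SKU5, a cell surface protein of root growth, was the 1 tested of 24. Its wild-type change was -0.42 ± 0.15 (limma adjusted p = 0.16, unadjusted p = 0.0152), and the wild-type groups did not overlap. The interaction of SKU5 was -0.54 ± 0.21 and did not pass (limma adjusted p = 0.313). Of 10 NADPH oxidases, which make superoxide outside the cell, RBOHG alone was tested (-0.40 ± 0.34 in wild type). The tested genes of monolignol synthesis were HCT (+0.14 ± 0.09 in wild type) and CCR2 (+0.44 ± 0.25), 2 of 17 listed. In wild type 0 passed (0 also at an unadjusted p below 0.05). In the mutant CCR2 had +0.83 ± 0.25 (limma unadjusted p = 0.00538, adjusted p = 0.927). None of the 7 Casparian strip genes had a tested probe set.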

How the data were processed

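Of the 12 arrays, the authors deposited linear intensity values per probe set, for which the submitters' processing notes name MAS5, without version or settings. Biotin labelling used a 3' kit, per the labels' protocols. The table held 22810 probe sets with 64 array controls. The platform's gene table gave 13513 of the others 1 gene, 503 several and 8730 none, and 13436 single genes matched RefSeq (TAIR10.1), the source of names and gene order. Each member had 1 such probe set.

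Signals were taken as log2 with no further normalization and filtered at the 40th percentile of mean log2 signal (13647 kept). The model had 1 mean for each of the 4 groups (limma 3.58.1 in R 4.3.3, eBayes with trend). Two-sided p-values were adjusted by Benjamini-Hochberg across the 13647 probe sets and called at 0.05. Errors are SE of the model (3 arrays per group) or SD. The fit was tested on simulated data.

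Members, gene lists and roles were chosen with earlier results of these data known. Naming rule: every member may be named. Full values go to members past the threshold in wild type or the interaction, the 5 brightest and, in each other comparison, those past it or the 3 of smallest p. The further sample values (PRX72, AT5G64110, Prx37 and shared probe sets among them) were chosen after being seen.

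Alternatives were no filter, a filter at the 60th percentile, a replicate block, quantile normalization, median centring, log2(signal + 16), only the arrays compared, array weights, and leaving out each array. Same-numbered mock and tunicamycin arrays of the mutant had r = 0.11, 0.44 and 0.51, which meets the criterion for pairing used here (r above 0.1 in every pair). Mutant mock array 2 and tunicamycin array 1, numbered differently, had r = 0.16, so the 0.11 alone does not set its pair apart. The other differently numbered mutant pairs had r from -0.46 to -0.007. In wild type same-numbered mock and tunicamycin arrays had r = 0.13, 0.02 and 0.12, which does not meet the criterion. Same-numbered mock arrays of the 2 genotypes had 0.08, 0.34 and 0.39. The main model had no replicate block.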

Additional observations from a re-analysis of the deposited data

Results flagged for a closer look

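The response to tunicamycin differed between wild type and ire1a ire1b for 11 of the 34 tested peroxidase genes by the interaction test (limma, adjusted p under 0.05). The share of all tested probe sets called below 0 in that test was 2.98%. Of the 11 calls, 7 ended in at least 1 alternative fit. The differences, wild-type minus mutant log2 change, were -2.34 for AT4G30170, -2.01 for AT5G19890, -1.66 for PRX71 (AT5G64120), -1.64 for AT2G37130, -1.45 for AT4G36430, -1.32 for AT2G18980, -1.03 for AT3G21770, -1.03 for AT5G64100, -0.95 for PRXR1 (AT4G21960), -0.92 for AT3G28200 and -0.59 for AT1G71695. No gene was looked at for single outlying arrays, since groups held 3 arrays.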

How the results depend on the processing

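No value of a called gene changed sign in any alternative: of 507 recomputed values for the 15 wild-type and 11 interaction calls, 0 reversed and 90 missed the threshold. The count of falls in wild type (15) ran from 14 to 20 over 8 alternatives and from 10 to 19 without single arrays, and the count higher in the mutant under tunicamycin (17) from 14 to 22 and from 14 to 18. The count of changes in the mutant was 0 in each alternative, with the replicate block too. The interaction count of 11 became 6 with no filter, where more probe sets share the adjustment. It ran from 4 to 15 without single arrays, and was 13 with the replicate block. The mock count of 1 became 0 with no filter, with quantile normalization and with each array centred on its median, 4 with the replicate block and 8 with array weights. It ran from 0 to 3 without single arrays, 3 being the count without ire1a ire1b tunicamycin array 3. The cause was not tested. The replicate block moved no other count by over 1.5 times (19 falls in wild type, 22 higher under tunicamycin). Averaging the probe sets of a gene gave no other value, as each member had 1, and the interaction cannot be fitted on 2 groups alone. Dim members (8 of 42) allow no statement.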
